A study of Mus musculus with 36 samples.

Results

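The receptors followed here were Gpr84, Hcar2, Gpr18, Ptafr, C5ar1, C3ar1, Cxcr4, Ccr1, Adora2a and Adora2b, 10 of the 53465 genes counted. They were chosen by name, as receptors for metabolites, lipid mediators, complement fragments, chemokines and adenosine, with results from these libraries in view. Which values guided that choice is not recorded, so the adjusted p-values below, taken over all genes tested, describe the members and are no independent support for the set. RNA was sequenced from RAW 264.7 cells, an established mouse macrophage-like line, in 36 libraries, 12 groups of 3. Solvent was given to 1 group and 10 µg/mL lipopolysaccharide (LPS, a bacterial cell wall component that activates macrophages through Toll-like receptor signalling) to another. The others received melatonin, in doses of 0.1 µM, 1 µM, 10 µM, 100 µM and 1 mM, either by itself or followed by LPS. Melatonin was given 30 min ahead of LPS where both were used, and cells were collected after 12 h of treatment. Whether the libraries within a group stem from independent cultures is not given in the labels, so p-values measure only a spread between libraries that may be technical.

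All 10 genes encode receptors with a bundle of membrane-spanning helices that signal through heterotrimeric G proteins. In macrophages and other myeloid cells such receptors read the surroundings: complement fragments and chemokines direct migration, medium-chain fatty acids and hydroxy-carboxylic acids report metabolic state, and extracellular adenosine acts through cyclic AMP. After binding their ligand most are phosphorylated, bound by arrestins and removed from the surface, so the RNA levels below are not levels of receptor protein at the membrane.

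Between 4203313 and 7590271 reads were counted per library. Levels are counts per 1000000 counted reads (CPM), and a count of 0 still allows 3 counts, or 0.388 to 0.599 CPM in a single library. Such floors cover counting error only. Of 8 macrophage marker genes, 7 or 8 were above the floor in every group, with a summed level of 2583 to 13681 CPM. The summed level of the T cell, B cell, neutrophil, dendritic cell, fibroblast or epithelial markers was at most 12.9 CPM in any library. A library of 1 mM and a library of 1 µM melatonin went against their labels. Over 270 genes that separated LPS with 1 mM from LPS with 0.1 µM melatonin and that LPS alone did not move, without the receptors, the size of that difference seen in each library without LPS was computed. It was 25.4% and 19.0% in replicates 1 and 2 of 1 mM melatonin and 6.80% in replicate 3, and it was 28.9% in replicate 1 of 1 µM melatonin against -3.76% and -0.80% in replicates 2 and 3. The summed macrophage markers split these libraries the same way, at 4629 and 4511 CPM in the first 2 replicates of 1 mM and 11240 CPM in the third, and at 4239 CPM in the first replicate of 1 µM and 12303 and 12376 CPM in the others. Libraries of 10 µM melatonin had 4.49% to 10.9% of that difference and 10523 to 11790 CPM of the markers. Those of 100 µM had 7.86% to 10.4% and 10430 to 10869 CPM. Which dose the libraries that went against their labels received was not tested. Replicate 3 of LPS with 1 mM melatonin also stood apart from its group. A chi-square of its counts against those of replicates 1 and 2 gave 41.3 and 40.5 per degree of freedom, the highest of any pair within a group, against 15.1 between replicates 1 and 2. It had 578 CPM of the macrophage gene Csf1r, where they had 1570 and 1508 CPM, and the lowest count total of all libraries. Groups were kept as labelled, the receptor calls under LPS with 1 mM melatonin are also given without that replicate, and results that rest on the groups in doubt are also given without the third replicate of 1 mM and the first of 1 µM.

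Per length of transcript, in fragments per kilobase and 1000000 reads (FPKM) as the authors calculated them, Gpr84 at 13.7 ± 5.1 (SD, n = 3) and C3ar1 at 11.6 ± 1.8 were the most abundant of the receptors in solvent, with overlapping libraries. Ptafr followed at 4.99 ± 0.76 and Cxcr4 at 2.52 ± 0.95, each below all libraries of the gene before it. Ccr1, C5ar1 and Adora2b overlapped one another between 0.485 and 1.09 FPKM, and Hcar2 and Gpr18 were listed at 0. With LPS the order was different: C5ar1 at 80.5 ± 5.8, C3ar1 at 80.0 ± 8.2 and Gpr84 at 64.2 ± 8.5 stood together, their libraries overlapping from one to the next. A second tier of Ptafr at 9.53 ± 2.81, Hcar2 at 7.21 ± 1.83, Adora2b at 7.04 ± 3.56 and Gpr18 at 6.51 ± 1.92 also overlapped, Ccr1 lay below it at 2.80 ± 0.65, and Cxcr4 at 0.249 ± 0.431 lay at the bottom with Adora2a. With LPS and 1 mM melatonin the first 3 no longer overlapped, at 31.1 ± 3.1 for C3ar1, 15.1 ± 8.6 for Gpr84 and 7.23 ± 0.91 for C5ar1.

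**Figure D1:**
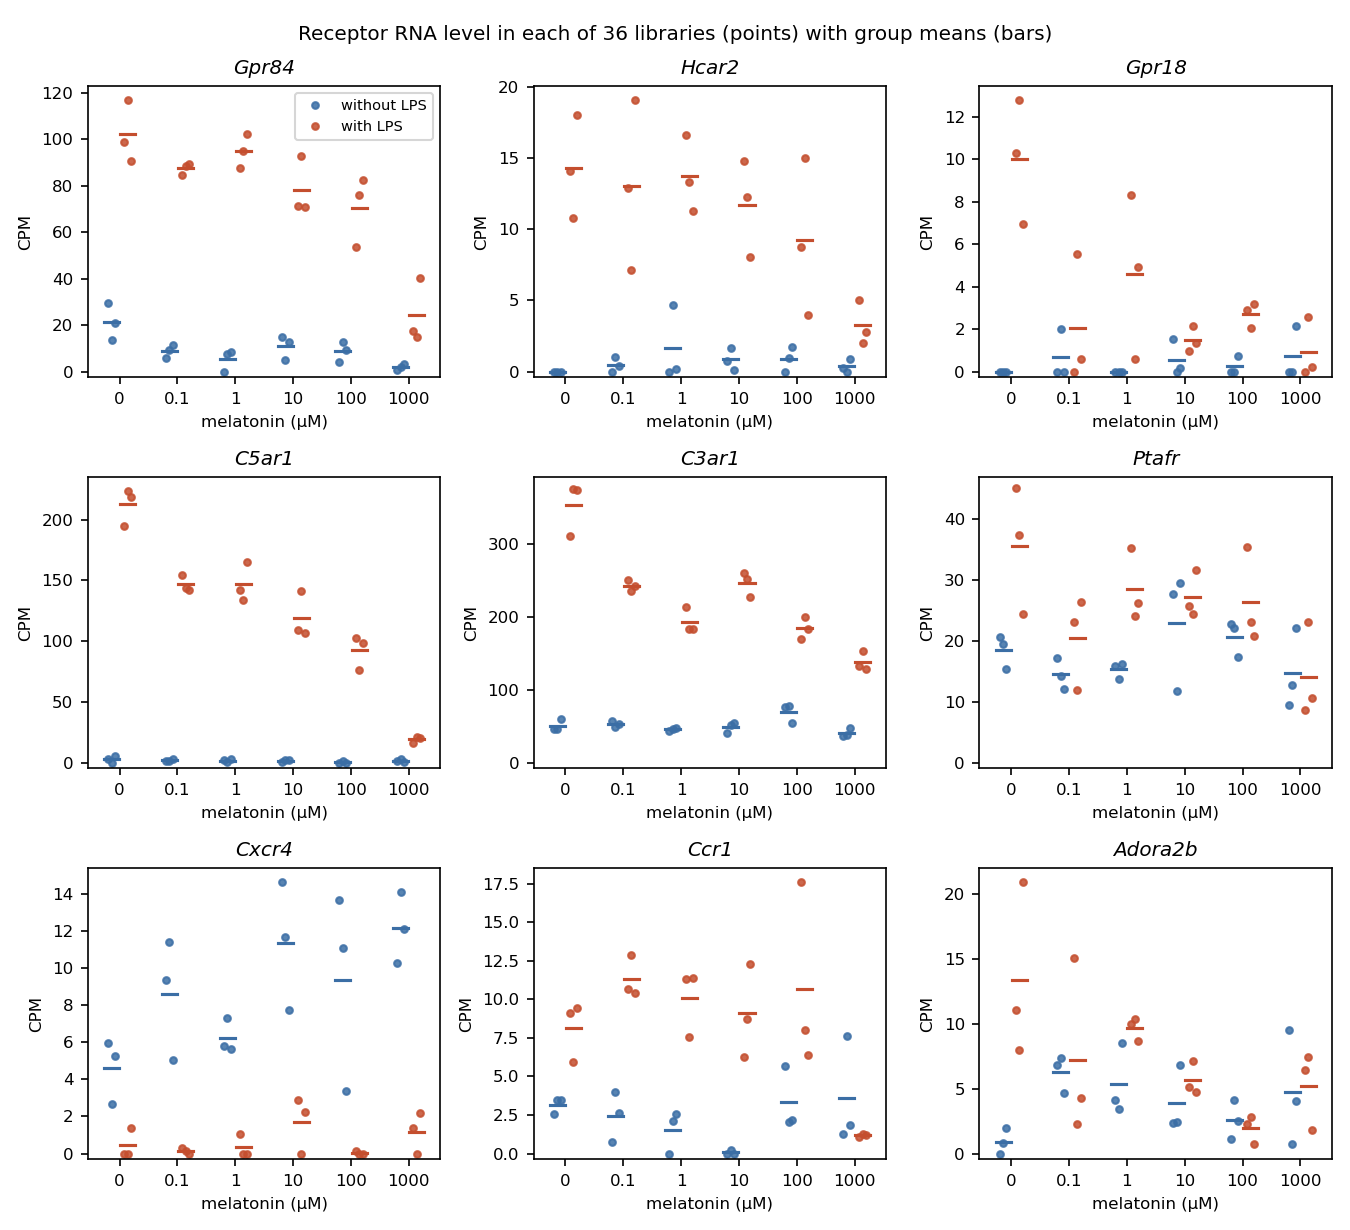
Level of 9 receptors in each of the 36 libraries, as CPM (y axis, a separate linear scale for each gene) against melatonin dose in µM (x axis, evenly spaced steps), without LPS in blue and with LPS in red; points are libraries and bars are group means. C5ar1 and C3ar1 with LPS stand lower at every melatonin dose than with LPS alone, where they are between 195 and 224 CPM and between 312 and 376 CPM, and Cxcr4 is the gene whose LPS libraries lie below those without LPS at every dose.

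To see how LPS alone moved the receptors, its 3 libraries were compared with solvent. Of the 10 receptors, 9 passed the filter on low counts and were tested, and 6 rose while 1 fell. Among all 16988 genes tested 16.5% were called, 8.4% higher and 8.09% lower. All 3 LPS libraries were above all 3 of solvent for 8 receptors and below for 1, which held for 15.7% and 15.6% of genes. Both complement receptors, Gpr84, Hcar2, Gpr18 and Adora2b were the receptors that rose, and their calls were kept in all 14 alternatives. Cxcr4 was the one that fell. The median log2 fold change of the 9 was 2.80, and that of all genes was -0.02. RNA from a population cannot tell fewer cells that use a gene from less RNA per cell.

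Among the metabolite and lipid receptors, Gpr84, which binds medium-chain fatty acids, had 29.6, 13.8 and 21.1 CPM in solvent and 99.1, 117 and 90.8 CPM with LPS. All 3 LPS libraries were above all 3 of solvent, and Gpr84 rose by a log2 fold change of 2.25 ± 0.46 (SE, edgeR adjusted p = 0.000253). The gene lies on the minus strand of chromosome 15 at chr15:103308235-103310612 (mm10), in 2 exon blocks. On the other strand the antisense gene Gm49482 shares 681 exon bases with it. The strand setting of the counting is not given in the sources used here, so over those bases reads of Gpr84 and of that neighbour cannot be told apart.

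Hcar2, the receptor for niacin and the ketone body beta-hydroxybutyrate, had 0 counts in every solvent library and 14.1, 10.8 and 18 CPM with LPS. Measured against 3 counts over the 3 solvent libraries, that is at least 89.8-fold higher (edgeR adjusted p = 2.44e-05). The gene is a single exon block at chr5:123863570-123865499 on the minus strand. That absence of counts held for solvent only. The groups with melatonin alone held from 8 counts, at 1 mM and 0.1 µM, to 30 counts, at 1 µM. Against melatonin alone, LPS with melatonin was 10.2-fold higher at 100 µM between pooled counts. At 1 mM it was 8.77-fold higher and did not pass the threshold (edgeR adjusted p = 0.0723).

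Gpr18, a receptor for N-arachidonoyl glycine and other lipids, had the same pattern, with 0 counts in each solvent library and 10.3, 12.8 and 6.94 CPM with LPS. That is at least 63.6-fold higher against the same floor (edgeR adjusted p = 0.00859). Its gene, at chr14:121911253-121915781 on the minus strand, lies within Ubac2 on the other strand but shares no exon base with it. Of 8 receptors with an entry in the RefSeq table of promoters, Gpr18 was the only one whose 250 bases before the start held, on either strand, a form of the interferon-stimulated response element, GAAA and GAAA with any 2 bases between them. That match is shown because 2.98% of all 32851 promoter windows of the same length hold one. The window below is chr14:121915889-121916138, minus strand, GRCm38.p6, 5′ to 3′ towards the start, with the match 41 to 32 bases before the RefSeq start in capitals. That start lies upstream of the gene span given above.
Gpr18: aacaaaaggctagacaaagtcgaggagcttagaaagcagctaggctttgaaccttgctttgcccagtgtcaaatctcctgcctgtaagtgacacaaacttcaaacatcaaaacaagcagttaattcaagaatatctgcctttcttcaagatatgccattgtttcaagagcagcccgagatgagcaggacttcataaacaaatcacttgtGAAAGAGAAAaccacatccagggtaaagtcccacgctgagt

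Ptafr, the receptor for platelet-activating factor, had 20.6, 19.5 and 15.3 CPM in solvent and 45.1, 37.4 and 24.4 CPM with LPS, so the groups did not overlap. The log2 fold change of 0.95 ± 0.37 did not pass the threshold (edgeR adjusted p = 0.0713), although it did without LPS replicate 3 (adjusted p = 0.0446) and in a fit of those 6 libraries by themselves (adjusted p = 0.0379). Ptafr occupies chr4:132564067-132582683 on the plus strand.

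C5ar1 encodes the receptor for the complement fragment C5a, a potent attractant of phagocytes, and C3ar1 that for C3a. C5ar1 counted 3.23, 0 and 5.24 CPM in solvent and 195, 224 and 219 CPM with LPS. The solvent libraries held 19, 0 and 35 counts of it, and with LPS it was among the 3 most abundant receptors per length. Its log2 fold change was 6.22 ± 0.52 (edgeR adjusted p = 1.29e-12), or 74.6-fold between pooled counts. C3ar1 began from 46.9, 45.7 and 59.5 CPM in solvent and reached 312, 376 and 374 CPM, a log2 fold change of 2.80 ± 0.16 (adjusted p = 9.84e-18). Their FPKM libraries overlapped with LPS and did not overlap in solvent. C5ar1 lies at chr7:16246743-16259540 and C3ar1 at chr6:122847138-122856161, both on the minus strand.

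The C3ar1 promoter is shown because this gene had the smallest SE of the 9 tested and passed the tests at the most melatonin doses. Of the 8 receptors it alone held the AP-1 letters TGANTCA, a palindrome that reads the same on both strands and that 6.75% of all promoter windows hold. Shown is chr6:122856162-122856407, minus strand, GRCm38.p6, 5′ to 3′ towards the start, the 246 bases of the window that lie outside the annotated gene, with the match 22 to 16 bases before the RefSeq start in capitals.
C3ar1: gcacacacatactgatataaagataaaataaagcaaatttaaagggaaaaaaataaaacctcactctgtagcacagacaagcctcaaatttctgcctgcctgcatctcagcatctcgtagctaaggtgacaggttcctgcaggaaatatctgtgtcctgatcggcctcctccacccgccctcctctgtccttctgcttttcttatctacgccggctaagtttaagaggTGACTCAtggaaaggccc

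The chemokine receptors went apart. Cxcr4, the receptor for Cxcl12, which holds myeloid cells in bone marrow, had 5.95, 2.67 and 5.24 CPM in solvent and 0, 0 and 1.39 CPM with LPS. All LPS libraries were below all solvent libraries, and Cxcr4 fell by 3.28 ± 1.15 on the log2 scale (edgeR adjusted p = 0.0416). The LPS libraries held only 9 counts in all, and the call was lost in a fit of those 6 libraries by themselves (adjusted p = 0.118), with the replicate number as a block (adjusted p = 0.0506) and without solvent replicate 1 or 3 or LPS replicate 1 or 2 (adjusted p = 0.0791 to 0.169). Cxcr4 lies at chr1:128588199-128592293 on the minus strand. As the receptor that moved against the rest, its window is shown for comparison: chr1:128592300-128592549, minus strand, GRCm38.p6, 5′ to 3′, with no capitals because none of the 7 motifs searched is in it. Its share of G and C, 61.2%, is below that of Adora2b (69.6%), a receptor that rose, and above the 42.4% to 56.0% of the other windows.
Cxcr4: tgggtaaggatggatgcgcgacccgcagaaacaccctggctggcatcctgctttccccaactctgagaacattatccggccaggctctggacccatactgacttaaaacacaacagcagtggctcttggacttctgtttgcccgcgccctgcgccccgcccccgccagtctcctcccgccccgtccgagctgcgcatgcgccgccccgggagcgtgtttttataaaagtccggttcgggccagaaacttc

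Ccr1, a receptor for Ccl3, Ccl5 and Ccl9, had 2.55, 3.45 and 3.45 CPM in solvent and 9.10, 5.97 and 9.41 CPM with LPS. The groups did not overlap, but the log2 fold change of 1.37 ± 0.77 did not pass the threshold (edgeR adjusted p = 0.248). The Ccr1 window was the one among the 8 that held an NF-kB motif, GGGA and CC with any 4 bases between them, which 17.63% of all windows hold, so a match is common. The gene spans chr9:123962124-123968692, and its window, shown because Ccr1 fell under LPS with 1 mM melatonin and there stood, as did Cxcr4, below every solvent library, is chr9:123968693-123968942, minus strand, GRCm38.p6, 5′ to 3′, with the match 74 to 65 bases before the start in capitals.
Ccr1: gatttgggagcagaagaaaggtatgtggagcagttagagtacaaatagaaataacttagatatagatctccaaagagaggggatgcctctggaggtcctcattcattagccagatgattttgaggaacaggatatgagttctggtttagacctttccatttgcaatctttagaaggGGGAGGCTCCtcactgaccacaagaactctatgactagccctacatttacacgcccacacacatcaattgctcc

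The other motifs were CRE (TGACGTCA), C/EBP (TTGCNNAA), PU.1 (GAGGAAGT) and the hypoxia element HRE (ACGTG), searched on both strands. They are in 1.55%, 9.56%, 2.44% and 16.57% of all windows and in none of the 8 receptors' windows. The windows of Gpr84 and C5ar1 lie mostly inside the annotated genes and are not printed. Hcar2 and Adora2a are not in the table. A match is a string of letters and shows no binding.

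The adenosine receptors were low. Adora2b, the low-affinity receptor that raises cyclic AMP, had 0, 0.785 and 1.95 CPM in solvent and 11.1, 8.01 and 21.0 CPM with LPS, and it rose by a log2 fold change of 3.83 ± 0.90 (edgeR adjusted p = 0.00152). Its libraries did not overlap between the groups. Adora2a, the high-affinity receptor, had 11 counts over all 36 libraries, was at 0 in 29 of them and was not tested. Its highest level in a library was 0.482 CPM, from 3 counts, so no change of Adora2a was detectable at this depth. Adora2b lies at chr11:62248984-62266453 and Adora2a at chr10:75316877-75334784, both on the plus strand.

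The LPS response was then followed across melatonin doses by comparing, at each dose, LPS with melatonin against melatonin alone. The 6 resulting pairs of groups, solvent included, share no library. Gpr84, C5ar1 and C3ar1 rose in all 6 pairs, which 2.71% of all genes did. Hcar2 rose in 5 and missed the threshold at 1 mM, and 4.67% of genes rose in at least 5. Cxcr4 fell in 5 of the 6 and missed the threshold at 10 µM, and 3.74% of genes fell in at least 5. For Gpr84, Hcar2, C5ar1 and C3ar1 the 3 LPS libraries were above the other 3 in every pair, and for Cxcr4 they were below in every pair. Of all genes 3.3% were above and 3% below in all 6.

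**Figure D2:**
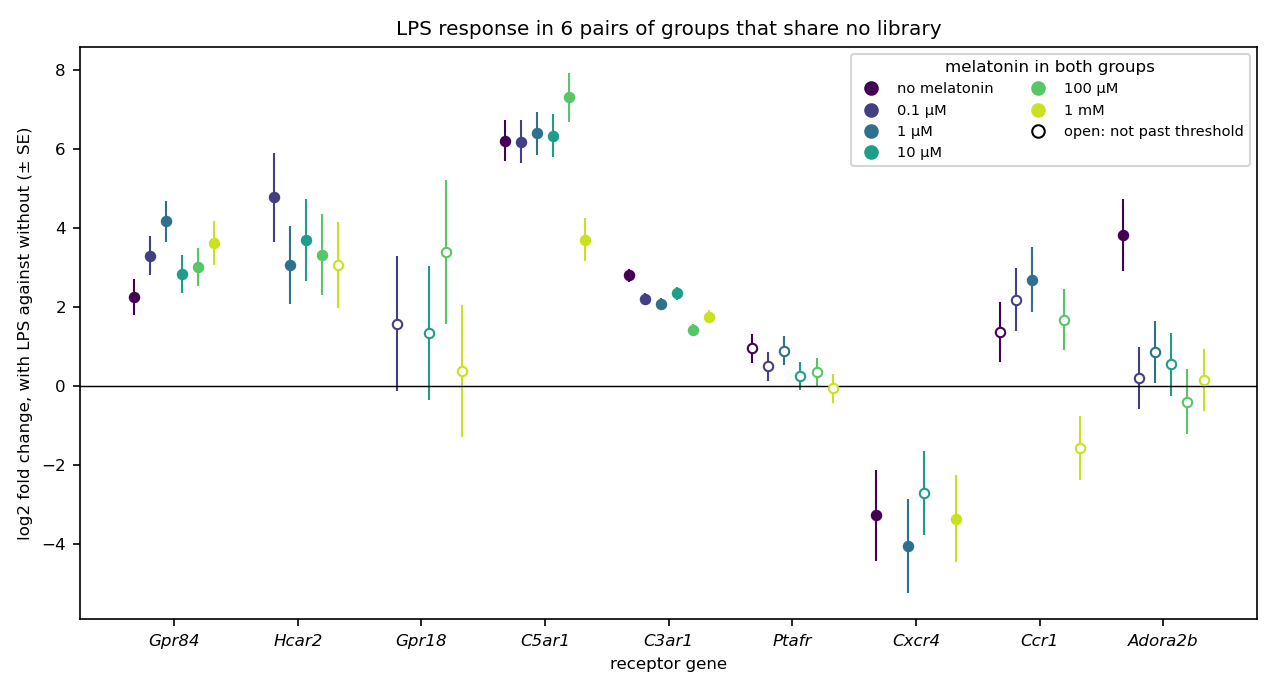
Log2 fold change between groups with and without LPS (y axis, points ± SE from the fit over all 36 libraries) for 9 receptors (x axis) at each melatonin dose (colour), filled where the adjusted p is under 0.05 and open otherwise. A pair in which a group had 3 counts or fewer has no point. The Gpr84, C5ar1 and C3ar1 points are all filled and above 0, those of Ptafr are all open, and C5ar1 at 1 mM, 3.70, lies below its other points, which are between 6.19 and 7.31.

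The log2 fold changes of the 3 receptors that rose in every pair are given with their SE. From the lowest dose to the highest C5ar1 had log2 fold changes of 6.19 ± 0.54, 6.40 ± 0.55, 6.34 ± 0.55, 7.31 ± 0.62 and 3.70 ± 0.55, against 6.22 without melatonin. The difference between 3.70 at 1 mM and 6.22 did not pass its test, given with the interactions. C3ar1 responses in the same order were 2.21 ± 0.16, 2.08 ± 0.16, 2.34 ± 0.16, 1.41 ± 0.15 and 1.76 ± 0.16, all smaller than the 2.80 without melatonin. Gpr84 responses were 3.30 ± 0.49, 4.17 ± 0.52, 2.83 ± 0.48, 3.02 ± 0.48 and 3.62 ± 0.56, none below the 2.25 without melatonin. The level of Gpr84 without LPS was itself lower with melatonin, as described below.

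The remaining receptors answered LPS less regularly. Ccr1 rose in 2 of the 6 pairs, those at 10 µM and 1 µM, Gpr18 in 2, without melatonin and at 1 µM, and Adora2b in 1, without melatonin. Both Gpr18 calls were against groups with 0 counts of it. The Ccr1 call at 10 µM was against a group with hardly a count of it, as given below. Ptafr passed in none. In single pairs 4 receptors were called at 1 mM, where 9.62% of genes were. The count was 5 with 100 µM (16.8% of genes), 5 with 10 µM (16.1%), 7 with 1 µM (15.4%) and 5 with 0.1 µM (15.7%). Without the libraries that went against their labels 4 were called at 1 µM, where Hcar2 (adjusted p = 0.111), Gpr18 (adjusted p = 0.054) and Ccr1 (adjusted p = 0.0908) were lost. At 1 mM 4 were called again, with Hcar2 gained (adjusted p = 0.0251) and Cxcr4 lost (adjusted p = 0.0671). Single libraries mattered for these genes in other pairs too. At 1 mM the Cxcr4 call was lost without replicate 1 or 2 of LPS with melatonin or any replicate of melatonin alone (adjusted p = 0.0569 to 0.163), and at 1 µM without replicate 2 or 3 of LPS with melatonin (adjusted p = 0.0749 and 0.074). The Hcar2 call was lost at 100 µM without replicate 2 of LPS with melatonin or replicate 1 or 2 of melatonin alone (adjusted p = 0.0621 to 0.1), at 10 µM without replicate 3 of melatonin alone (adjusted p = 0.0622) and at 1 µM without replicate 1 or 2 of LPS with melatonin or replicate 1 or 3 of melatonin alone (adjusted p = 0.0535 to 0.132). The Gpr18 call at 1 µM was lost without replicate 1 of LPS with melatonin or any replicate of melatonin alone (adjusted p = 0.0543 to 0.0723).

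With melatonin and no LPS few of the receptors passed the threshold. At 1 mM 1 of the 9 tested, Gpr84, fell, where 0.418% of all genes were called and 0.318% were lower. Gpr84 had 0.831, 1.83 and 3.16 CPM with 1 mM melatonin, all below the 13.8 to 29.6 CPM of solvent, and fell by 3.46 ± 0.56 on the log2 scale (edgeR adjusted p = 0.000685). Without the libraries in doubt the value was -3.995 (adjusted p = 3.59e-07), and in a fit of the 6 libraries by themselves the call was lost (adjusted p = 0.175). No other receptor was called. Of the macrophage markers, whose summed levels in this group are given above, Lyz2 had the smallest adjusted p here, 0.0927, with a log2 fold change of -1.13 ± 0.31, and its part in the fall of Gpr84 was not tested.

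Gpr84 was lower at the other doses too, though it did not pass the threshold there. With 100 µM it had 4.32, 12.6 and 9.23 CPM and with 10 µM 15.0, 5.05 and 12.9 CPM. With 1 µM it had 0, 7.46 and 8.53 CPM and with 0.1 µM 5.91, 9.37 and 11.6 CPM. Of the 15 libraries with melatonin alone, 14 were below the lowest solvent library. All 5 comparisons share the same 3 solvent libraries, and the same count over all genes was not made. At a single dose all 3 libraries were below all 3 of solvent for 6.32% to 8.28% of genes. In the same order of doses the log2 fold changes were -1.30 ± 0.47, -0.97 ± 0.47, -2.02 ± 0.50 and -1.27 ± 0.48, with edgeR adjusted p of 0.713, 0.718, 0.0992 and 0.355. The library without a Gpr84 count was replicate 1 of 1 µM, one of those that went against their labels.

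Ccr1 at 10 µM was the one other call for melatonin alone, where 0.0824% of genes were called and 0.0706% were lower. Its libraries had 0, 0.259 and 0 CPM, from 2 counts in all, against 2.55 to 3.45 CPM in solvent (edgeR adjusted p = 0.045). That call was lost in 9 of 14 alternatives, among them each of the 6 fits that left out a single library (adjusted p = 0.0503 to 0.329). At 100 µM, 1 µM and 0.1 µM no receptor was called, where 0.0824%, 0.147% and 0.341% of genes were. There 4, 3 and 4 receptors had an unadjusted edgeR p under 0.05, and at 1 mM and 10 µM 4 and 5 had. Such counts are given here and below without their share over all genes, so they have no baseline. At 100 µM, 1 µM and 0.1 µM DESeq2 called 0, 2 and 0 receptors. Of all genes it called 31, 77 and 189, where edgeR called 14, 25 and 58. Those DESeq2 calls were Gpr84 and Hcar2 at 1 µM. Hcar2 also passed there in edgeR without replicate 1 (adjusted p = 0.0375), on 30 counts in the group, with 4.71 CPM in replicate 2 and 0 and 0.171 CPM in the others.

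Cxcr4, Adora2b and Hcar2 stood above solvent in most libraries with melatonin alone without passing the test at any dose. Cxcr4 had 10.2, 14.1 and 12.1 CPM at 1 mM and 14.6, 11.6 and 7.73 CPM at 10 µM, above the 2.67 to 5.95 CPM of solvent, and 11 of the 15 libraries were above the highest solvent library. The log2 fold changes were 1.39 ± 0.99 and 1.29 ± 0.99 (edgeR adjusted p = 0.661 and 0.888). Adora2b was above the highest solvent library in 13 of 15, with 6.84, 7.36 and 4.67 CPM at 0.1 µM. Its log2 fold changes lay between 1.47 ± 0.87 at 100 µM and 2.74 ± 0.88 at 0.1 µM (adjusted p = 0.81 and 0.211). Hcar2, with 0 counts in solvent, was above in 11 of 15. Ccr1 was below the lowest solvent library in 10 of 15 and above the highest in 3. C5ar1 was above the highest or below the lowest solvent library in none of the 15, the solvent libraries themselves running from 0 to 5.24 CPM. Counts over these 15 libraries were not made for all genes. At a single dose all 3 libraries were above all 3 of solvent for 5.18% to 8.19% of genes.

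To see what melatonin did to receptor levels under LPS, each dose with LPS was compared with LPS alone. At 1 mM 5 of the 9 receptors tested fell and none rose, where 7.55% of all genes were called and 4.71% were lower. Those that fell were both complement receptors, Gpr84, Ptafr and Ccr1. The median log2 fold change of the 9 was -2.09, and that of all genes was 0.02. In 8 of the 9 all 3 libraries with melatonin were below all 3 with LPS alone, which held for 11.2% of genes, and Cxcr4 was the exception. Macrophage markers moved with this comparison. Their summed level was 10531, 10707 and 10775 CPM with LPS and 3615, 3385 and 2583 CPM with LPS and 1 mM melatonin, 7 of 8 markers being above the floor in the second group. Lyz2, Itgam, Fcgr1 and Adgre1 fell, by 1.54 to 2.57 on the log2 scale, while Cd68, Spi1, Csf1r and Mrc1 were not past the threshold. The part of this in the fall of the receptors was not tested.

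C5ar1 had 16.4, 20.7 and 20.6 CPM with LPS and 1 mM melatonin against 195 to 224 CPM with LPS alone. It thus stood at 9.04% ± 1.15 (SD, n = 3) of its mean LPS level and fell by 3.47 ± 0.44 on the log2 scale (edgeR adjusted p = 1.84e-07). These libraries still lay above every solvent library. C3ar1 had 133, 153 and 129 CPM, 39.1% ± 3.7 of its LPS level, and fell by 1.36 ± 0.15 (adjusted p = 1.3e-08). Of the pair, the C5a receptor therefore stood at the smaller share of its LPS level, a difference for which no test was run.

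Gpr84 had 17.3, 15.0 and 40.3 CPM, within or above the range of solvent, and fell by 2.09 ± 0.46 on the log2 scale (edgeR adjusted p = 0.00169). Replicate 3 of this group, the library that stood apart, was the one above solvent. Ptafr had 8.58, 23.0 and 10.6 CPM and fell by 1.33 ± 0.37 (adjusted p = 0.0168). Ccr1 had 1.07, 1.29 and 1.20 CPM, below every solvent library, and fell by 2.76 ± 0.83 (adjusted p = 0.0295).

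The Ptafr and Ccr1 calls each rested on few libraries. Ptafr was lost in 6 of 14 alternatives, among them without LPS replicate 1 or 2 or replicate 1 or 3 of LPS with 1 mM melatonin (adjusted p = 0.051 to 0.13). Ccr1 was lost in 6 of 14, among them without LPS replicate 1 or 3 or any replicate of LPS with 1 mM melatonin (adjusted p = 0.0736 to 0.103). The calls of Gpr84, C5ar1 and C3ar1 were kept in all 14. Without replicate 3 of LPS with 1 mM melatonin these were the 3 receptors called, with log2 fold changes of -2.66, -3.52 and -1.31 (edgeR adjusted p = 0.000367, 1.93e-06 and 2.45e-07), while Ptafr had -1.17 (adjusted p = 0.101) and Ccr1 -2.76 (adjusted p = 0.0947).

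Hcar2, Gpr18 and Adora2b were also lower at 1 mM in every library but did not pass the threshold. Hcar2 had 5.06, 2.01 and 2.79 CPM against 10.8 to 18 CPM with LPS alone, a log2 fold change of -2.11 ± 0.95 (edgeR adjusted p = 0.199). Gpr18 had 0, 2.59 and 0.200 CPM, a log2 fold change of -3.38 ± 1.77 (adjusted p = 0.289). Adora2b had 6.44, 7.48 and 1.80 CPM, a log2 fold change of -1.34 ± 0.80 (adjusted p = 0.366). Cxcr4, at 1.38, 0 and 2.20 CPM, overlapped the LPS libraries.

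**Figure D3:**
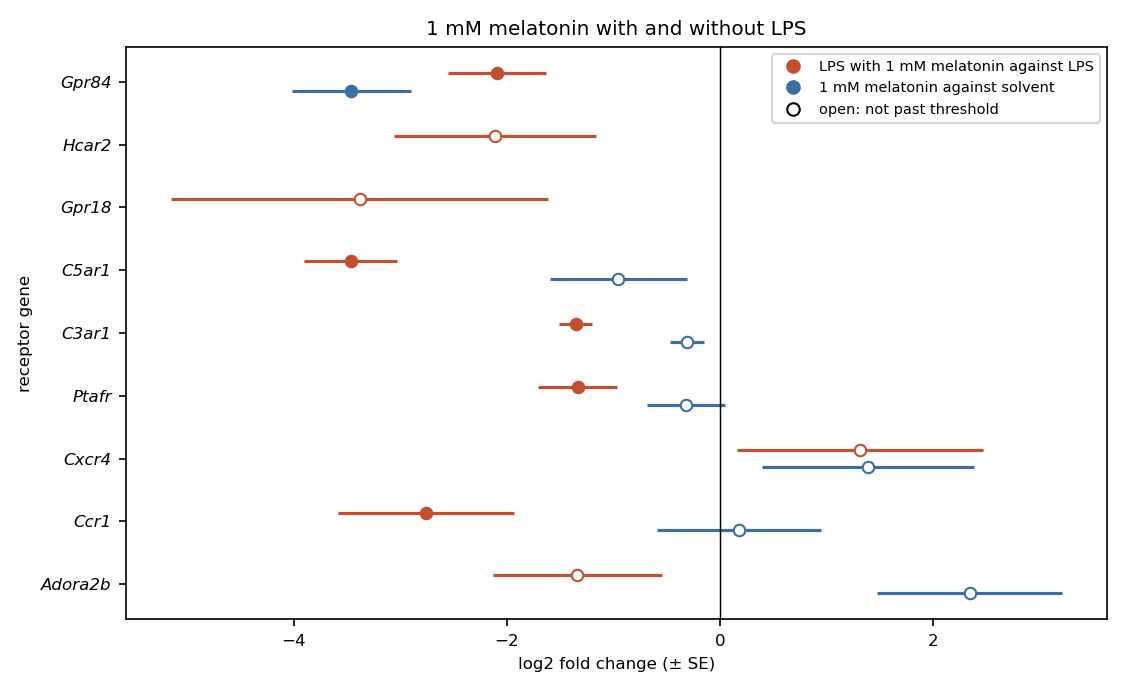
Log2 fold change (x axis, points ± SE) of 9 receptors (y axis) for 1 mM melatonin, added to LPS in red and to solvent in blue, filled where the adjusted p is under 0.05 and open otherwise; Hcar2 and Gpr18 have no blue point because solvent had 0 counts. With LPS 5 points are filled and all of these lie left of 0, and without LPS the Gpr84 point at -3.46 is the filled one.

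At lower doses C3ar1 was the one receptor past the threshold in the fit over all libraries. C3ar1 had 170, 201 and 184 CPM at 100 µM and fell by 0.94 ± 0.15 on the log2 scale (edgeR adjusted p = 0.000177), 1 receptor where 1.18% of genes were called and 0.547% were lower. At 1 µM it had 214, 184 and 184 CPM and fell by 0.87 ± 0.15 (adjusted p = 0.00103), where 0.612% of genes were called and 0.318% were lower. At 10 µM and 0.1 µM no receptor was called in edgeR, where 0.371% and 1.36% of genes were. At each of these doses 2 receptors had an unadjusted p under 0.05, and DESeq2 called 1, C3ar1. Of all genes DESeq2 called 152 and 457, where edgeR called 63 and 231. C3ar1 missed narrowly at 0.1 µM with 251, 236 and 243 CPM (adjusted p = 0.0535).

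The calls of other receptors at these doses depended on the fit. From 100 µM down to 0.1 µM C5ar1 had log2 fold changes of -1.20 ± 0.39, -0.83 ± 0.39, -0.53 ± 0.39 and -0.53 ± 0.39 (edgeR adjusted p = 0.144, 0.484, 0.63 and 0.583). In fits of only the groups compared it passed at all 4 doses (adjusted p = 1.88e-05, 0.000874, 0.0237 and 0.0184), and with no filter on low counts it passed at 100 µM (adjusted p = 8.44e-05). Adora2b at 100 µM, with -2.76 ± 0.85 (edgeR adjusted p = 0.105), passed with DESeq2 (adjusted p = 0.024) and with only the groups compared (adjusted p = 0.0152). Gpr18 passed at 10 µM with only the groups compared (adjusted p = 0.037), as C3ar1 did at 10 µM and 0.1 µM (adjusted p = 0.00648 and 0.00733).

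Every one of the 15 libraries with LPS and melatonin was below the lowest LPS library for C5ar1 and for C3ar1. The same count was 14 for Gpr18, 12 for Gpr84, 11 for Adora2b, 8 for Ptafr and 7 for Hcar2. These counts share the 3 LPS libraries, and the same count over all genes was not made. At a single dose all 3 libraries with melatonin were below all 3 with LPS alone for 8.5% to 11.2% of genes. From 100 µM down to 0.1 µM C5ar1 stood at 43.5% ± 6.6, 56.1% ± 9.1, 69.3% ± 7.7 and 69.0% ± 3.1 (SD, n = 3) of its LPS level. C3ar1 stood at 52.2% ± 4.4, 69.6% ± 4.9, 54.7% ± 4.9 and 68.7% ± 2.0, and its 3 libraries at 1 µM were all below those at 10 µM. Gpr84 stood at 69.0% ± 14.8, 76.6% ± 12.4, 92.7% ± 7.3 and 85.7% ± 2.4. Hcar2 ran from 64.4% ± 38.7 at 100 µM to 95.8% ± 18.9 at 1 µM.

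**Figure D4:**
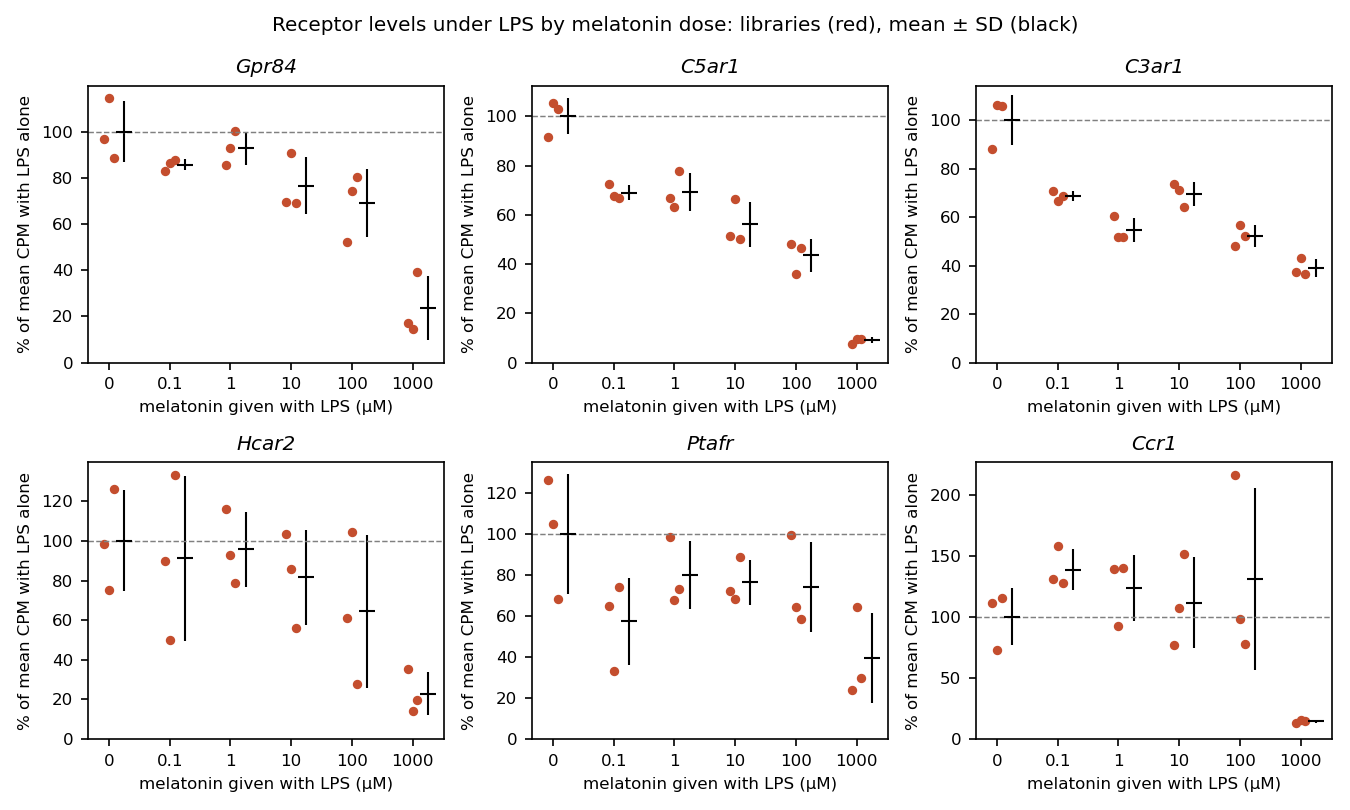
Level of 6 receptors with LPS and melatonin as a percent of the mean CPM with LPS alone (y axis, from 0, separate scales) against melatonin dose in µM (x axis, evenly spaced steps); red points are libraries, black marks are the mean ± SD (n = 3) and the dashed line is 100%. C5ar1 falls to 9.04% at 1000 µM after 43.5% at 100 µM, whereas Ccr1 is above 100% on average at each of the 4 lower doses and at 14.6% at 1000 µM.

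Ccr1 took another course. It had 17.6, 8.04 and 6.37 CPM at 100 µM and 10.7, 12.9 and 10.4 CPM at 0.1 µM, and its group means were 112% to 139% of the LPS level at the 4 lower doses. Of the 15 libraries 7 were above the highest LPS library and 3, the 1 mM libraries, below the lowest, again without such a count over all genes. None of those rises passed the threshold (edgeR adjusted p = 0.864 to 0.995).

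The step from 100 µM to 1 mM under LPS was tested directly. Here 3 receptors fell, where 4.93% of genes were called and 3.77% were lower. C5ar1 fell by 2.27 ± 0.42 on the log2 scale (edgeR adjusted p = 0.000378), Ccr1 by 3.15 ± 0.84 (adjusted p = 0.0174) and Gpr84 by 1.56 ± 0.45 (adjusted p = 0.0325). C3ar1, which had passed at 100 µM already, did not pass here, with -0.42 ± 0.15 (adjusted p = 0.114). The C5ar1 call was kept in 14 of 14 alternatives. Ccr1 was lost without any replicate of LPS with 1 mM melatonin or without replicate 1 of LPS with 100 µM (adjusted p = 0.0641 to 0.136), and Gpr84 without replicate 1 or 2 of LPS with 1 mM or replicate 2 or 3 of LPS with 100 µM (adjusted p = 0.0862 to 0.177) and with library totals as the only scaling (adjusted p = 0.0847). Without replicate 3 of LPS with 1 mM C5ar1 and Gpr84 were kept (-2.32 and -2.13, adjusted p = 0.00159 and 0.00742).

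Whether melatonin acted differently with and without LPS was tested as an interaction. C3ar1 was the receptor that passed, at 1 mM with -1.04 ± 0.22 on the log2 scale (edgeR adjusted p = 0.00381), where 1.69% of genes were called and 1.06% were lower, and at 100 µM with -1.40 ± 0.22 (adjusted p = 0.000141), where 0.418% were called and 0.23% were lower. Without the libraries in doubt the value at 1 mM was -0.91 (adjusted p = 0.0125), and without replicate 3 of LPS with 1 mM it was -0.997 (adjusted p = 0.00693). Of the macrophage markers Adgre1 passed at 1 mM as well, with -2.25 ± 0.59 (adjusted p = 0.0319), and its part was not tested. At 100 µM the C3ar1 libraries without LPS were at 76.7, 77.9 and 54.4 CPM, of which 2 lay above all solvent libraries, while those with LPS lay below all LPS libraries. C5ar1 had -2.51 ± 0.79 at 1 mM and did not pass (adjusted p = 0.105), but did without the libraries in doubt (-2.93, adjusted p = 0.0308) without solvent replicate 3 (adjusted p = 0.0291) and with no filter on low counts (adjusted p = 8.43e-06). Gpr84, which fell with 1 mM both with and without LPS, had 1.37 ± 0.71 (adjusted p = 0.425). Adora2b had -3.68 ± 1.18 (adjusted p = 0.113, and 0.0402 with DESeq2), Ccr1 -2.94 ± 1.12 (adjusted p = 0.219) and Ptafr -1.01 ± 0.52 (adjusted p = 0.422). Hcar2 and Gpr18, with 0 counts in solvent, did not pass. Over 20 alternatives Hcar2 ran from -7.04 to -5.15 and passed with no filter on low counts (edgeR adjusted p = 0.0334). Gpr18 ran from -11.8 to -3.38 and passed in none. At 1 mM and 100 µM 6 and 3 receptors had an unadjusted edgeR p under 0.05. At 10 µM, 1 µM and 0.1 µM no receptor passed, where 0.0235%, 0.0471% and 0.0118% of genes did. There 5, 4 and 4 receptors had an unadjusted edgeR p under 0.05. DESeq2 called 1 (Ccr1), 0 and 0 receptors there, and 71, 23 and 8 of all genes.

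Other genes of the same systems were read beside the receptors. Over all genes tested 16.5% were called with LPS, 8.4% higher and 8.09% lower, and 7.55% with 1 mM melatonin under LPS, with median log2 fold changes of -0.02 and 0.02. No test compared these lists with one another or with the other genes. Of 21 ligand genes and ligand-handling enzymes tested, 5 rose and 4 fell with LPS (median log2 fold change 0.22), and 2 fell with 1 mM melatonin under LPS (median -0.15), where 16.5% and 7.55% of all genes were called. Of the ligands of Ccr1, 3 rose with LPS: Ccl3 from 382 ± 12 to 5580 ± 394 CPM, Ccl9 from 167 ± 24 to 1022 ± 117 CPM and Ccl5 from 5.15 ± 1.73 to 693 ± 73 CPM (edgeR adjusted p at most 7.77e-15). Ccl3, at 1814 ± 296 CPM, and Ccl9, at 532 ± 197 CPM, were those that fell when 1 mM melatonin was added, while Ccl5 had 731 ± 102 CPM. Slc29a1, a transporter that clears adenosine, fell with LPS from 35.0 ± 7.2 to 5.54 ± 2.98 CPM (adjusted p = 6.09e-05).

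Of 9 other chemokine receptors tested 1 rose and 2 fell with LPS (median log2 fold change 0.96), and 1 rose and 1 fell with 1 mM melatonin under LPS (median -1.26), against 16.5% and 7.55% of all genes called. Ccrl2, which binds chemerin without signalling, rose from 7.20 ± 4.32 to 29.5 ± 6.3 CPM with LPS (edgeR adjusted p = 0.00687). Cx3cr1, the fractalkine receptor, fell from 614 ± 7 to 301 ± 21 CPM (adjusted p = 0.00372) and fell again to 125 ± 25 CPM with 1 mM melatonin (adjusted p = 0.00121). Cxcr3 fell with LPS and rose with melatonin, from 1.32 ± 0.79 to 4.92 ± 1.54 CPM (adjusted p = 0.0415).

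Of 25 other metabolite, lipid and nucleotide receptors 1 rose and 6 fell with LPS (median log2 fold change -0.42), where 8.4% of all genes were higher and 8.09% lower. Ptgir, the prostacyclin receptor, rose from 7.61 ± 0.26 to 49.5 ± 7.7 CPM with LPS and fell to 7.74 ± 1.59 CPM with 1 mM melatonin added (edgeR adjusted p = 5.07e-05). Gpr183, an oxysterol receptor, fell with LPS from 102 ± 7 to 23.5 ± 5.6 CPM, and P2ry12, an ADP receptor, went from 14.2 ± 1.9 CPM to 0 counts in all 3 libraries. S1pr1, a receptor for sphingosine 1-phosphate, fell from 30.2 ± 6.8 to 0.305 ± 0.303 CPM and rose to 5.86 ± 1.80 CPM with melatonin (adjusted p = 0.00199). Under LPS 3 of the 25 rose and 3 fell with 1 mM melatonin (median -0.34), where 7.55% of all genes were called. P2ry6 and Gpr132 were the others that fell, by 1.35 ± 0.30 and 1.25 ± 0.33 on the log2 scale.

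Genes that act downstream of the receptors were counted in the same way. Of 20 G protein subunits 3 rose and 2 fell with LPS (median log2 fold change -0.45), where 16.5% of all genes were called. Gnai2, a subunit through which many chemoattractant receptors signal, fell from 553 ± 15 to 378 ± 28 CPM (edgeR adjusted p = 0.000231), and Gna15 fell too (adjusted p = 0.000762). Gnai3 rose from 79.8 ± 4.0 to 119 ± 9 CPM and Gnb1 from 356 ± 26 to 548 ± 21 CPM (adjusted p = 0.0319 and 0.00382). With 1 mM melatonin under LPS edgeR called 0 of the 20 subunits, where 7.55% of all genes were called. Of the 20, 5 had an unadjusted p under 0.05, with the smallest adjusted p, 0.0605, for Gng12. Of 16 regulators that end signalling 1 rose and 3 fell with LPS (median -0.11), and 2 rose with 1 mM melatonin under LPS (median -0.03), against 16.5% and 7.55% of all genes. Rgs2, which speeds the shut-off of G proteins, fell from 745 ± 29 to 232 ± 33 CPM and rose to 403 ± 98 CPM with melatonin (adjusted p = 0.00065). Rgs10 fell and rose likewise (adjusted p = 1.39e-06 and 0.0253), and Arrb1, an arrestin, fell with LPS from 154 ± 18 to 52.7 ± 4.6 CPM. Of 24 genes of cyclic AMP signalling 3 rose and 2 fell with LPS (median -0.41), and 1 rose with 1 mM melatonin under LPS (median 0.00), against the same 16.5% and 7.55% of all genes. Pde4b, a phosphodiesterase that degrades cyclic AMP, rose with LPS from 19.0 ± 4.4 to 63.0 ± 14.6 CPM (adjusted p = 0.0018). With 1 mM melatonin alone edgeR called 0 of the 115 genes tested in these 6 lists, where 0.418% of all genes were called. Of the 115, 18 had an unadjusted p under 0.05, a count without its share over all genes.

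Genes with the pattern nearest to that of the 4 receptors with the widest range were sought by Pearson correlation of group means of log2 CPM over the 12 groups, among 9475 protein-coding genes. For C5ar1 they were M6pr, Rhoc and Ccl3, with r of 0.994, 0.992 and 0.992. For Gpr84 they were Ftsj3, Ltb and Ifitm3 (0.984, 0.976 and 0.975), for Hcar2 Ubr4, Pla2g5 and Abcc1 (0.985, 0.984 and 0.982), and for Cxcr4 Sgo2a, Arhgap45 and Atp13a2 (0.982, 0.978 and 0.975). The nearest 3 genes depended on the measure. By rank correlation (Spearman) M6pr recurred for C5ar1, and Sgo2a and Atp13a2 for Cxcr4. None recurred for Gpr84, where Mtdh, Bcl2a1b and Maff were nearest, or for Hcar2, where Itgal, Galnt3 and Il1a were. All these correlations share the libraries and, above all, the split by LPS, so they are a description.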

How the data were processed

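RNA sequencing of 36 libraries was deposited as 2 tables. Per the submitters' processing notes, cutadapt and featureCounts were used and the build was mm10; versions, aligner and strand setting are not given in the sources used here. The deposited counts are whole reads per gene with no scaling. The deposited FPKM values, with gene symbols, are per the file headers the authors' own and were used only for symbols and for ordering genes by level. Of the identifiers 99.6% matched GENCODE M21, the source of mm10 positions, and promoters came from RefSeq (GRCm38.p6).

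The test was edgeR 4.0.16 (R 4.3.3): filterByExpr with 12 groups (16988 genes), TMM factors (0.914 to 1.19), a quasi-likelihood fit of 1 mean per group over all libraries, two-sided p-values adjusted by Benjamini-Hochberg per comparison, threshold 0.05. CPM uses the filtered, scaled library sizes and log2 CPM a prior count of 2. SDs are over 3 libraries and SEs are from the fit. Where 3 libraries had 0 counts, folds are bounds against 3 counts over the group, and with 1 to 3 counts only levels are given. The procedure was tested on simulated counts for LPS against solvent (15606 genes). It recovered 21% of 100 genes changed by 1 on the log2 scale and 53% of 100 changed by 2, so in that setting many changes missed the threshold. Only those genes were changed in the simulation, whereas 16.5% of all genes were called in the data. The adjusted threshold depends on that share, so the recovery in the tests above is not known. Alternatives were other scaling (DESeq2 1.42.0 size factors, library totals), DESeq2, other filters, the replicate number as a block, fits of only the groups compared, and fits without single libraries. All 10 receptors are named; genes named from a list are among its 4 smallest adjusted p-values, and likeness was sought among genes with at least 5 CPM in 1 group. Members and lists were chosen with earlier results of these data known. Same-numbered replicates did not deviate together, with correlations of -0.035 to 0.034.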

Additional observations from a re-analysis of the deposited data

Results flagged for a closer look

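C3ar1 stood out because melatonin moved it differently with and without LPS, by the edgeR test of that difference. At 1 mM the interaction was -1.04 ± 0.22 on the log2 scale (edgeR adjusted p = 0.00381): C3ar1 fell by 1.36 under LPS and had a log2 fold change of -0.31 without it. The call was lost with only the 4 groups compared in the fit (adjusted p = 0.0739) and was kept in the other 19 of 20 alternatives. At 100 µM the interaction was -1.40 ± 0.22 (adjusted p = 0.000141), from -0.94 under LPS and 0.46 without it, and it was kept in 20 of 20 alternatives. All 3 LPS libraries with melatonin lay below the LPS libraries at both doses, and 2 of 3 libraries at 100 µM without LPS lay above the solvent libraries.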

How the results depend on the processing

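Of 176 counts of receptors called under alternatives that left out no single replicate, 147 stayed within 1.5 times of the reported count. With no filter on low counts 2 receptors were called for 100 µM alone, 2 for 1 µM alone, 1 for 0.1 µM alone, 2 for LPS with 100 µM against LPS, 3 for the interaction at 1 mM and 1 for that at 1 µM. Of all genes 40, 89, 137 and 308 were then called in the comparisons before the interactions, and 40 for the interaction at 1 µM. With DESeq2 the receptor counts were 2 for 1 µM alone, 2, 1 and 1 for LPS with 100 µM, 10 µM and 0.1 µM against LPS, and 2, 2 and 1 for the interactions at 1 mM, 100 µM and 10 µM. In the same order DESeq2 called 77, 398, 152, 457, 470, 166 and 71 of all genes. With only the groups compared the receptor counts were 0 for 1 mM alone, 0 for 10 µM alone, 3, 3, 2 and 2 for LPS with 100 µM, 10 µM, 1 µM and 0.1 µM against LPS, 3 for the LPS response at 1 µM, and 0 and 1 for the interactions at 1 mM and 10 µM. Of all genes 0 and 62 were then called with melatonin alone, 626, 374, 415 and 508 against LPS, and 102 and 161 for these interactions. Without both libraries in doubt the receptor counts were 1 for 1 µM alone, 1 for LPS with 0.1 µM against LPS, 4 for the LPS response at 1 µM, and 2 and 1 for the interactions at 1 mM and 10 µM. Of all genes 92 were then called for 1 µM alone, 361 for LPS with 0.1 µM against LPS and 64 for the interaction at 10 µM. With library totals as the only scaling, added after the data were seen, the receptor count for 10 µM alone was 0. The median of all genes then moved to -0.12 for LPS, 0.27 for LPS with 1 mM against LPS and 0.24 for the step from 100 µM to 1 mM. The cause of these changes was not tested. The labels share replicate numbers, which do not pair the libraries; with the replicate block the count for 10 µM alone was 0, that for LPS was 6 as Cxcr4 missed (adjusted p = 0.0506), and no other count of receptors changed.

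Leaving out 1 library at a time gave 6 to 8 receptors called for LPS against solvent, 1 to 1 for 1 mM alone, 0 to 1 for 100 µM and 1 µM alone, 0 to 0 for 10 µM alone, 3 to 4 for LPS with 1 mM against LPS, 1 to 2 for the step from 100 µM, 1 to 2 for the interaction at 1 mM, and for the LPS response 3 to 4 at 1 mM, 4 to 5 at 100 µM and 10 µM and 4 to 6 at 1 µM. Ccr1 at 1 mM alone ran from 0.59 without replicate 1 of that group to -1.01 without replicate 2, which reverses it. The Cxcr4 interaction at 1 mM, -0.08 as reported, turned to 0.11 with library totals, 0.20 without solvent replicate 2, 4.56 without LPS replicate 3, 0.04 without replicate 2 of 1 mM and 0.52 without replicate 2 of LPS with 1 mM; without other single libraries it ran down to -0.83, and it rests on few counts. Counts over all genes moved more: for 1 mM alone 71 genes became 485 without the libraries in doubt, 151 without a filter, 166 with DESeq2 and 0 with only the groups compared, for the interaction at 1 mM 287 became 470 with DESeq2 and 102 with only the groups compared, and for LPS with 1 mM against LPS 1282 became 558, and for the step from 100 µM 838 became 261, with only the groups compared. The alternatives past 1.5 times gave 24 to 40 genes for 100 µM alone (14 as reported), 38 to 62 for 10 µM (14), 0 to 92 for 1 µM (25) and 137 to 338 for 0.1 µM (58); 308 to 626, 129 to 374, 187 to 415 and 361 to 508 for LPS with 100 µM, 10 µM, 1 µM and 0.1 µM against LPS (201, 63, 104 and 231); 595 for the LPS response at 1 mM (1634); and 131 to 335, 60 to 161, 5 to 40 and 4 to 28 for the interactions at the 4 lower doses (71, 4, 8 and 2), so the background shares beside the receptors moved with them. These ranges leave out no single library. Leaving out 1 at a time lowered most counts: to 10 to 347 for 1 mM alone (lowest without its replicate 2, highest without its replicate 3), 11 to 33 for 0.1 µM alone, 3 to 66 for 1 µM alone and 9 to 14 for 10 µM alone; to 82 to 134, 17 to 40, 50 to 81 and 46 to 221 for LPS with 100 µM, 10 µM, 1 µM and 0.1 µM against LPS (lowest without replicate 1, 2, 3 and 2 of the group with melatonin); to 453 to 884 for the step from 100 µM (lowest without replicate 1 of LPS with 100 µM); and to 25 to 64, 1 to 10, 0 to 6 and 1 to 4 for the interactions at 100 µM, 10 µM, 1 µM and 0.1 µM. At the depth reached, a gene with 0 counts can hold up to 0.599 CPM in a library.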
